A study of Homo sapiens with 16 samples.

Results

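Huh7, a human hepatocellular carcinoma (HCC) cell line, was profiled by RNA sequencing after it had become resistant to Sorafenib, and the resistant cells are compared here with the Huh7 cells labeled DMSO. The comparison takes 6 of the 16 libraries of the series. Its members were chosen by library name, as 2 Huh7-IR and 2 Huh7-CR libraries together against 2 DMSO libraries. That choice, and the gene lists used below, were made with earlier results of these data known. Huh7-IR cells were raised in increasing concentrations of Sorafenib and Huh7-CR cells in a constantly high one, and both were kept in 7 μM Sorafenib. The DMSO cells are labeled untreated, with DMSO, the solvent of the drug, as their description, so that exposure to the drug and resistance to it cannot be told apart. All Huh7 cells share the same culture medium with serum, and none carries an engineered change. Each resistant line is a single line raised by selection. While the study's methods speak of biological replicates, nothing in the labels says whether replicates 1 and 2 came from separate cultures. The p-values measure the spread between replicate libraries, pooled over all 16 libraries of the series, and this spread may be technical.

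Sorafenib blocks several kinases, among them RAF kinases and the receptors for VEGF and PDGF, and is given to patients with advanced HCC. HCC cells such as Huh7 keep much of the hepatocyte program, in which a network of transcription factors drives secreted plasma proteins, lipoproteins and enzymes of metabolism. Carcinoma cells can lower that program and raise genes of mesenchymal cells, matrix and adhesion, a change known as dedifferentiation or epithelial-mesenchymal transition.

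The deposited values are in CPM, read counts scaled to the same total in each library. The 6 libraries held 46613302 to 76407060 reads, and a single read stood for 0.0131 to 0.0215 CPM. Of 26258 genes, 15019 reached 1 CPM in at least 2 of the 16 libraries and were tested. Replicates were less alike in the DMSO and IR groups, where the standard deviation (SD) of their log2 difference over genes was 0.571 and 0.566, than in the CR and parental groups, where it was 0.290 in both. In the Hep3B groups it was 0.236 to 0.311. The pooled spread behind the p-values can thus understate that of the DMSO and IR groups. Both DMSO libraries differed by at least 1 log2 unit for 1155 genes, of which 1011 were higher in DMSO replicate 2, and the difference went along with the GC content of the genes (Spearman's rho = 0.514 across genes, which are not independent replicates). Results for which the DMSO libraries disagree are therefore given with each of them, and the 2 parental Huh7 libraries stand beside them as a further drug-free group. In bulk RNA, fewer cells that express a gene and less RNA per cell cannot be told apart.

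Resistant Huh7 cells differed from DMSO cells in a large share of the genes. A gene was called when limma on log2(CPM + 1) gave a change of 0.58 log2 units or more, in either direction, with a p under 0.05 after Benjamini-Hochberg (BH) adjustment. By this rule 3551 genes (23.6% of those tested) were higher in the resistant cells and 2641 (17.6%) were lower, 41.2% in all. All 4 resistant libraries lay above both DMSO libraries for 4446 genes (29.6%) and below both for 3285 (21.9%), 51.5% in all. Genes that were called and did not overlap numbered 3232 (21.5%) on the higher and 2382 (15.9%) on the lower side, and the results below turn on these. Another 319 higher and 259 lower calls overlapped with a DMSO library. The median log2 fold change of all tested genes was 0.09. The changes were often large: among the called genes without overlap, 1741 rose and 1475 fell by at least 1 log2 unit, 557 and 569 by at least 2, and 92 and 102 by at least 4. Higher genes made up 57.3% of the calls with CPM and between 48.4% and 51.8% with edgeR, DESeq2, TMM factors, quantile normalization or a GC correction.

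The parental libraries, which are in neither group of the contrast but enter the filter and the shared estimate of spread, lay on the DMSO side for most of these genes. Both parental libraries were below all 4 resistant libraries for 2974 of the 3232 higher genes (92%), against 37.2% of all tested genes. For the 2382 lower genes, both were above all 4 resistant libraries for 1955 (82.1%), against 24.9% of all tested genes. Parental cells overlapped with the resistant cells for 414 of the lower genes (17.4%) and lay beyond them for 13. The same 4 resistant libraries enter both counts.

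**Figure D1:**
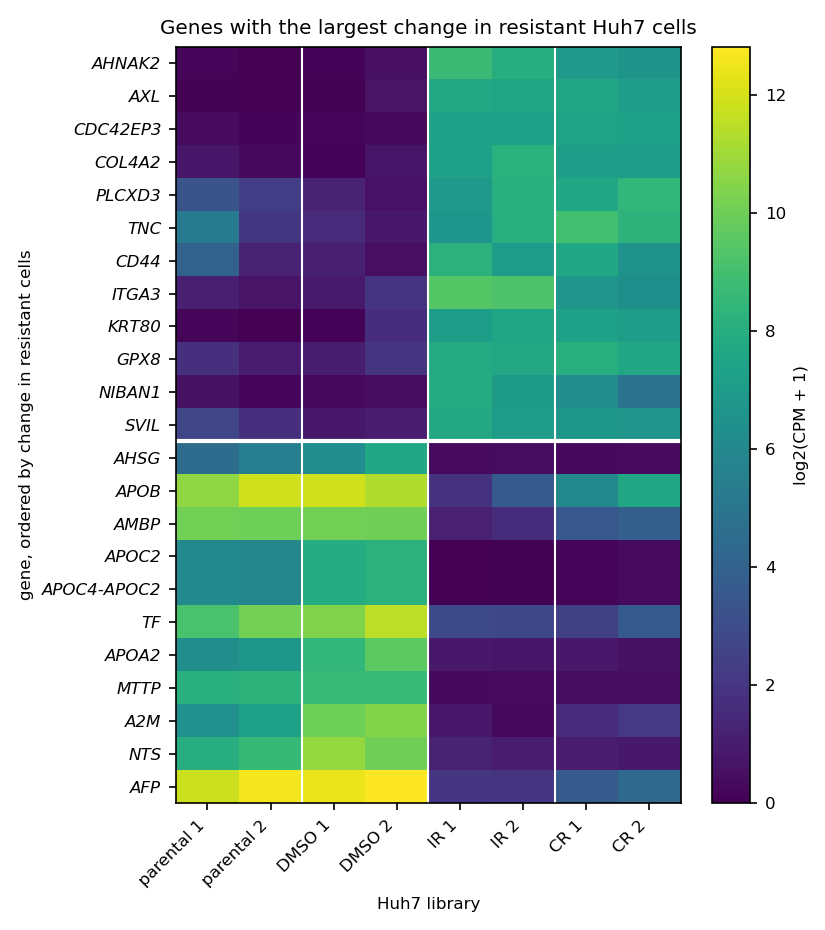
Heat map of 23 of the 24 leading genes in the 8 Huh7 libraries, with color for log2(CPM + 1) from dark (0) to light (highest). The upper 12 genes are near 0 in DMSO cells and high in all 4 resistant libraries, and the lower 11 show the opposite pattern, with parental cells lower than DMSO cells for several of them such as NTS and A2M.

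The genes with the largest increase were led by AHNAK2, AXL, CDC42EP3 and COL4A2. AXL (chromosome 19, 41725128 to 41767671 in GRCh37), a receptor tyrosine kinase for the ligand GAS6, had 0.0414 and 0.603 CPM in DMSO cells, 214 and 190.0 CPM in Huh7-IR and 208 and 139 CPM in Huh7-CR cells. Its 4 resistant libraries were far above both DMSO libraries, with a log2 fold change of 7.17 (standard error (SE) 0.32, adjusted p = 7.2e-09). AHNAK2 (chromosome 14, 105403581 to 105444711), a very large scaffold protein, had 0.0828 and 0.46 CPM in DMSO, 427 and 251 CPM in IR and 122 and 97.7 CPM in CR cells. It rose by 7.24 log2 units (SE 0.43, adjusted p = 6.7e-08), and both IR libraries were above both CR libraries. CDC42EP3, an effector of the GTPase CDC42 at the actin cytoskeleton, had 0.124 and 0.273 CPM in DMSO, 163 and 154 CPM in IR and 169 and 158 CPM in CR cells. These 4 resistant values were nearly equal, at a log2 fold change of 7.08 (SE 0.16, adjusted p = 5.4e-11). ITGA3, an integrin chain that binds laminin, had 0.91 and 2.92 CPM in DMSO, 702 and 611 CPM in IR and 101 and 82.3 CPM in CR cells. It was higher in IR than in CR cells within its overall rise of 6.49 log2 units (SE 0.28).

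CD44, the receptor for hyaluronan, had 1.2 and 0.417 CPM in DMSO, 303 and 135 CPM in IR and 197 and 90.9 CPM in CR cells. Tenascin C (TNC), a matrix glycoprotein, had 1.85 and 0.804 CPM in DMSO, 107 and 276 CPM in IR and 489 and 314 CPM in CR cells. The parental libraries held 36.8 and 3.24 CPM of TNC and 14.6 and 1.41 CPM of CD44, so a parental library was far above both DMSO libraries for both genes while all 4 resistant libraries were higher still. The rise was 6.55 log2 units for CD44 and 6.85 for TNC against DMSO, and 4.75 and 4.36 against parental cells. The type IV collagen chain COL4A2 (log2 fold change 7.01), the phospholipase-like gene PLCXD3 (6.89), the keratin KRT80 (6.38), the endoplasmic reticulum peroxidase GPX8 (6.33), NIBAN1 (6.17) and the actin-binding supervillin gene SVIL (6.16) complete the 12 leading genes. KRT80 had 0.0965 and 2.23 CPM in the DMSO libraries, and its value was 5.61 without DMSO replicate 1.

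The genes with the largest decrease were led by AFP, NTS, A2M and MTTP. AFP (chromosome 4, 74296855 to 74321891), the fetal plasma protein that serves as a marker of HCC, had 5476 and 7222 CPM in DMSO, 3.12 and 2.79 CPM in IR and 11.3 and 20.1 CPM in CR cells. With a log2 fold change of -9.62 (SE 0.47, adjusted p = 1.5e-08) it showed the largest drop of all genes named by the rule. NTS, the peptide neurotensin, had 1767 and 1042 CPM in DMSO, 1.38 and 0.987 CPM in IR and 0.958 and 0.825 CPM in CR cells. A2M, a broad inhibitor of proteases, had 1019 and 1370 CPM in DMSO, 0.796 and 0.215 CPM in IR and 2.04 and 3.35 CPM in CR cells. Parental cells were between both states for these genes, with 254 and 381 CPM of NTS and 88.4 and 153 CPM of A2M. The log2 fold change was -9.39 for NTS and -9.00 for A2M against DMSO, and -7.27 and -5.66 against parental cells.

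MTTP, which loads lipid onto apolipoprotein B, had 399 and 412 CPM in DMSO, 0.249 and 0.279 CPM in IR and 0.355 and 0.366 CPM in CR cells, with 277 and 307 CPM in parental cells. Here parental cells were close to DMSO cells and all resistant libraries were under 1 CPM, at a log2 fold change of -8.28 (SE 0.22, adjusted p = 1.5e-10). Further leading decreases were in APOA2 (-8.27), the iron carrier transferrin (TF, -8.04), APOC2 (-7.90), AMBP (-7.51), APOB (-6.77) and AHSG (-6.59, and -5.93 without DMSO replicate 2). Against parental cells the values were, in the same order, -5.79, -6.71, -5.86, -7.47, -6.48 and -4.66. The APOC2 value is uncertain as a value of its own, since the readthrough gene APOC4-APOC2 covers the same exons and had nearly the same CPM in every library.

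The hepatocyte program was lower in the resistant cells. Of 28 plasma protein genes tested, 26 were called lower and 0 higher, all 26 without overlap, where 15.9% of all tested genes were lower without overlap. The median log2 fold change of the list was -4.44 against 0.09 for all genes. Albumin (ALB), the main plasma protein, had 9740 and 13244 CPM in DMSO, 60.6 and 261 CPM in IR and 1147 and 2305 CPM in CR cells. All 4 resistant libraries were below both DMSO libraries, IR more so than CR, with a log2 fold change of -4.64 (SE 0.53, adjusted p = 1.5e-05). The protease inhibitor SERPINA1 had 266 and 492 CPM in DMSO, 9.48 and 48.1 CPM in IR and 42.2 and 62.7 CPM in CR cells, a change of -3.39. Haptoglobin (HP) was not called, with 2.41 and 1.36 CPM in DMSO, 0.0663 and 0.558 CPM in IR and 1.73 and 5.63 CPM in CR cells, so that the CR libraries reached the DMSO range. ITIH1, the other gene not called, was at or under 1.15 CPM in all 6 libraries. Plasminogen (PLG) stayed under the filter. The summed level of the list was 29208 and 34317 CPM at the lowest and highest of the DMSO libraries, 206 to 863 CPM in IR, 1705 to 3574 CPM in CR and 14505 to 19835 CPM in parental cells. All 10 hepatocyte marker genes checked for the label of the line, among them ALB, TTR, APOA1 and HNF4A, were present in DMSO cells and were called lower in resistant cells.

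Transcription factors of the liver moved with it in part. Of 19 tested, 12 were called lower and 2 higher, with a median of -1.32, where 17.6% and 23.6% of all tested genes were called. Against parental cells the higher count was 4, where 26.9% of all tested genes were called higher. CEBPA, a basic leucine zipper factor of mature hepatocytes, had 178 and 276 CPM in DMSO, 3.5 and 7.08 CPM in IR and 2.32 and 4.67 CPM in CR cells. It fell by the most in this list, at -5.44 (SE 0.27, adjusted p = 1.8e-08). Its relative CEBPB, a factor of the acute phase, had 3.78 and 6.36 CPM in DMSO, 29.3 and 20.7 CPM in IR and 17.8 and 16.5 CPM in CR cells. CEBPB thus rose, at 1.86 (adjusted p = 1.7e-05), and ONECUT2 rose too (1.17, adjusted p = 0.0044). The nuclear receptors NR5A2 (-3.74) and NR1H4, the bile acid receptor (-3.74), the pioneer factors FOXA1 (-3.46) and FOXA3 (-2.55) and the homeobox factor PROX1 (-2.35) fell. HNF4A, a central factor of hepatocyte identity, had 194 and 210.3 CPM in DMSO, 23.7 and 63.8 CPM in IR and 72.1 and 109.7 CPM in CR cells, a change of -1.76 (adjusted p = 0.00033). NR1H4 was 12.6 and 20.4 CPM in parental cells, so its change against parental cells was -1.35.

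Genes of bile acids, drug metabolism and transport were mixed. Of 25 on the list, 9 stayed under the filter. Of the 16 tested, 7 were called lower and 2 higher (median -0.89), where 17.6% and 23.6% of all tested genes were. The drug-metabolizing enzymes CYP1A1 (-4.42, -3.05 or -5.78 with 1 DMSO library left out) and UGT2B4 (-3.86, -3.25 or -4.47) fell. CYP2B6 had 5.49 and 14.4 CPM in DMSO, 0.0497 and 0 CPM in IR and 0.0773 and 0.0262 CPM in CR cells, and fell by 3.27 log2 units. Its value was -2.64 or -3.90 with 1 DMSO library left out, and -1.63 against parental cells (2.05 and 2.38 CPM). The organic cation carrier SLC22A3 (2.57) and the export pump ABCC3 (2.08) rose. ABCB1, the multidrug pump P-glycoprotein, had 97.3 and 69.3 CPM in DMSO, 20 and 29.1 CPM in IR and 17.9 and 35.8 CPM in CR cells. It was thus lower in all 4 resistant libraries, at -1.69 (SE 0.34, adjusted p = 0.0013).

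Among 9 tested genes of the urea cycle and gluconeogenesis, 5 were called lower and 2 higher (median -1.58), with 3 lower against parental cells and 1 higher without DMSO replicate 1. Against DMSO, 17.6% of all tested genes were called lower and 23.6% higher, so that the higher share was close to that of all genes. Fructose-bisphosphatase (FBP1), an enzyme of gluconeogenesis, had 12.8 and 15.5 CPM in DMSO, 0.58 and 0.279 CPM in IR and 0.294 and 0.301 CPM in CR cells. Its log2 fold change was -3.47 against DMSO, and -0.66 against parental cells, which held only 1.11 and 1.19 CPM. Arginase (ARG1) showed the same pattern, with -1.99 against DMSO and -0.083 against parental cells, where it was no longer called. With 1 DMSO library left out ARG1 was at -1.12 or -2.86. Pyruvate carboxylase (PC) fell by 2.51 and also against parental cells (-2.19). PCK2, the mitochondrial phosphoenolpyruvate carboxykinase, rose by 1.70 (1.08 or 2.33 with 1 DMSO library left out).

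Genes of cholesterol synthesis and uptake, which the factor SREBP2 switches on when sterols are low, were lower in the resistant cells almost as a whole. Of 23 tested, 22 were called lower without overlap, where 15.9% of all tested genes were, with a median log2 fold change of -1.57. HMGCS1, an early enzyme of the pathway, had 1773 and 3288 CPM in DMSO, 222 and 163 CPM in IR and 324 and 444 CPM in CR cells, a change of -3.16 (SE 0.42, adjusted p = 5.3e-05). All 4 resistant libraries were far below both DMSO libraries, and the IR libraries lay below the CR libraries, a difference that was not called. Lanosterol synthase (LSS) alone was not called, with 92.2 and 218 CPM in DMSO, 82.3 and 105 CPM in IR and 90.1 and 122 CPM in CR cells.

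The size of this decrease depended on the drug-free library. DMSO replicate 2 was the highest of the 8 Huh7 libraries for 22 of the 23 genes, and both parental libraries were below both DMSO libraries for 12. Summed over the list, DMSO cells held 6300 and 11165 CPM, parental cells 3176 and 6221 CPM, CR cells 2937 and 3643 CPM and IR cells 1641 and 1832 CPM. CR cells thus overlapped with parental cells in the summed level and IR cells did not. Without DMSO replicate 2, 14 genes were called lower, and with the parental libraries in place of DMSO 9 were, against 16.1% of all tested genes called lower in that comparison. INSIG1, a sterol-regulated brake on the pathway, was -1.14 without DMSO replicate 2, and -0.63 and no longer called against parental cells. DHCR7 (-1.87) was -1.20 or -2.54 with 1 DMSO library left out.

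Genes of mesenchymal cells were higher. Of 15 tested, 11 were called higher and 0 lower, 10 of them without overlap, with a median log2 fold change of 2.16. By the same rule 23.6% of all tested genes were called higher, and 21.5% without overlap. The actin-binding transgelin gene (TAGLN), a marker of smooth muscle and fibroblasts, had 1.05 and 2.31 CPM in DMSO, 118 and 80.6 CPM in IR and 322 and 237 CPM in CR cells. The transcription factor ZEB2, a repressor of epithelial genes, had 0.786 and 1.71 CPM in DMSO, 137 and 111 CPM in IR and 111 and 95.9 CPM in CR cells. SPARC, a secreted binder of collagen, had 6.26 and 12.3 CPM in DMSO, 561 and 562 CPM in IR and 366 and 445 CPM in CR cells. All 3 were higher in each resistant library than in both DMSO libraries, at 5.99, 5.69 and 5.60 (adjusted p = 1.3e-05, 4e-09 and 8.7e-09). The intermediate filament vimentin (VIM) rose from 650.2 and 721 CPM in DMSO to 3639 and 2646 CPM in IR and 2942 and 2286 CPM in CR cells, and N-cadherin (CDH2) rose by 2.16 log2 units. SNAI2 was called higher (2.38). Fibronectin (FN1), with 3588 and 6162 CPM in DMSO, 3835 and 7038 CPM in IR and 9066 and 10558 CPM in CR cells, was not called.

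Of 17 tested epithelial genes, 11 were called lower and 2 higher, 8 and 2 without overlap (median -1.2). Of all tested genes, 17.6% were called lower and 23.6% higher, 15.9% and 21.5% without overlap. CLDN1, a tight junction protein, had 1401 and 1569 CPM in DMSO, 242 and 334 CPM in IR and 281 and 310.1 CPM in CR cells, a change of -2.35 (SE 0.16, adjusted p = 2.5e-07). The splicing factor ESRP2 (-2.44) and the surface protein EPCAM (-1.57) fell. E-cadherin (CDH1) had 69.2 and 282 CPM in DMSO, 21.9 and 39 CPM in IR, 57.6 and 95.4 CPM in CR and 33.6 and 28 CPM in parental cells. Its call of -1.56 rested on DMSO replicate 2, since the value was -0.56 and not called without that library and 0.59 against parental cells. TJP3, at -1.79, was likewise not called without DMSO replicate 2 (-0.86) or against parental cells (0.19). The keratin KRT7 rose from 0.0414 and 0.144 CPM in DMSO to 8.01 and 21 CPM in IR and 16.3 and 9.79 CPM in CR cells, and the junction protein TJP1 was called at 0.66 (0.52 and not called without DMSO replicate 2, 0.56 and not called against parental cells). Against parental cells 6 epithelial genes were called lower, where 16.1% of all tested genes were.

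Adhesion and matrix genes rose in larger numbers than they fell. Of 18 tested integrin subunits, 12 were called higher without overlap and 0 lower (median 0.95), where 21.5% and 15.9% of all tested genes were called without overlap. ITGA4, which pairs with beta chains to bind fibronectin and VCAM1, had 0.0138 and 0.0287 CPM in DMSO, 37.4 and 34.9 CPM in IR and 44.4 and 35.2 CPM in CR cells. It was close to the level of single reads in DMSO cells and rose by 5.25 log2 units (SE 0.29, adjusted p = 4.2e-08). ITGB3 (3.71) and ITGB4, the partner of ITGA6 in hemidesmosomes (3.06), rose too. Of 19 tested matrix genes, 12 were called higher and 2 lower without overlap (median 1.61), against the same shares of all tested genes. The fibrillar collagen genes COL1A2 (5.56, 4.77 without DMSO replicate 1), COL1A1 (4.37) and COL3A1 (3.87), the basement membrane collagen COL4A1 (4.70, 4.09 without DMSO replicate 1) and the laminin chain LAMA3 (5.42) rose. LAMC1 (-1.07) and COL5A2 (-0.87) fell. Thrombospondin 1 (THBS1) had 360.3 and 196 CPM in DMSO, 749 and 1000 CPM in IR, 768 and 762 CPM in CR and 907 and 911 CPM in parental cells. It rose by 1.61 against DMSO, but was -0.16 against parental cells, which were as high as the resistant ones.

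Of 7 tested caveola genes, 5 were called higher and 0 lower (median 1.48). Caveolin-1 (CAV1), the main coat protein of these membrane pits, had 43.9 and 32.6 CPM in DMSO, 243 and 228 CPM in IR and 286 and 239 CPM in CR cells, a change of 2.68 (adjusted p = 9e-06). The coat protein CAVIN1 rose by 2.33 and the ATPase EHD2 by 3.77 (2.86 without DMSO replicate 1). Of 21 tested targets of YAP and TEAD, the factors at the end of the Hippo pathway, 11 were called higher and 4 lower (9 and 4 without overlap, median 0.64). Of all tested genes, 23.6% were called higher and 17.6% lower, so that the lower share of the list was close to that of all genes. The membrane repair protein MYOF had 107 and 82.8 CPM in DMSO, 987 and 1440 CPM in IR and 911 and 886 CPM in CR cells (3.44), and RBMS3 (1.99) and AXL, which is on this list too, rose. CCN2 (also called CTGF), a widely used readout of YAP, had 461 and 458 CPM in DMSO, 239 and 158 CPM in IR and 224 and 154 CPM in CR cells. It was lower in each resistant library, at -1.27 (SE 0.25, adjusted p = 0.00096), as were IGFBP3 (-1.73) and AMOTL2 (-1.34, -0.53 and not called against parental cells).

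Markers of other cell types did not move as a block, and their counts stand beside 23.6% of all tested genes called higher and 17.6% called lower. Of 7 tested fibroblast or stellate cell markers, 4 were called higher (COL1A1, COL3A1, ACTA2 and RGS5) and 2 lower. The lower ones were PDGFRA (-3.70, a growth factor receptor described next) and lumican (LUM, -2.23), and the summed level of the list was 409 to 584 CPM in DMSO, 133 to 139 CPM in IR and 223 to 435 CPM in CR cells. ACTA2, smooth muscle actin, had 0 and 0.129 CPM in DMSO, 2.3 and 1.65 CPM in IR and 7.39 and 9.83 CPM in CR cells. Of 7 endothelial markers 6 were under the filter, with CLEC4G at 0 in every Huh7 library, and PECAM1 fell. Of 6 macrophage markers 3 were tested: PTPRC, the pan-leukocyte antigen, was at most 0.262 CPM in the 4 resistant libraries and fell, CD14 was not called, and CD68, a lysosomal protein, had 3.75 and 10.8 CPM in DMSO, 47 and 71.9 CPM in IR and 46.3 and 47.6 CPM in CR cells (2.83, 2.17 without DMSO replicate 1). Of the T cell markers CD3D, the only one tested, fell, and CD2 and CD3E were at 0 in all 4 resistant libraries. CD8A, also under the filter, went the other way, with 0.0414 and 0.115 CPM in DMSO, 2.82 and 0.408 CPM in IR and 0.185 and 0.118 CPM in CR cells. Of 7 cholangiocyte markers 4 were called lower and 1, KRT7, higher, and the secreted phosphoprotein SPP1 had 249 and 248 CPM in DMSO, 1.91 and 2.6 CPM in IR and 13.3 and 30.3 CPM in CR cells.

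Receptors of growth factors fell more often than they rose, with 10 of 16 tested called lower and 3 higher (median -1.11), where 17.6% and 23.6% of all tested genes were. KLB, the co-receptor that FGF19 needs in liver, had 261 and 356 CPM in DMSO, 0.547 and 3.26 CPM in IR and 22.6 and 37.2 CPM in CR cells. All 4 resistant libraries were lower and IR was lower than CR, at -5.12 (SE 0.33, adjusted p = 1.2e-07). The FGF receptors FGFR3 (-4.42) and FGFR4 (-2.71) and the neuregulin receptor ERBB3 (-2.58, -1.93 without IR replicate 1) fell as well. The PDGF receptor gene PDGFRA, which codes for the alpha receptor for PDGF, had 98.2 and 90.8 CPM in DMSO, 1.81 and 2.79 CPM in IR and 13.8 and 17.6 CPM in CR cells. Besides AXL, the HGF receptor MET (0.79, 0.52 and not called without DMSO replicate 2) and FGFR1 (1.74) were called higher. FGFR1 had 5.02 and 5.18 CPM in parental cells, within the resistant range, and was 0.54 and not called against them.

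Output genes of the RAF-MEK-ERK cascade, which lies downstream of these receptors, were called lower for 9 of 20 and higher for 6 (7 and 6 without overlap, median -0.38). Of all tested genes, 17.6% were called lower and 23.6% higher. DUSP6, a phosphatase that ERK induces and that acts back on ERK, had 57.3 and 77.3 CPM in DMSO, 5.34 and 10.4 CPM in IR and 7.53 and 5.69 CPM in CR cells. It was lower in each resistant library, at -3.07 (SE 0.26, adjusted p = 1.4e-06), and at -1.52 against parental cells (20.7 and 23.4 CPM). The feedback gene SPRY1 (-2.42) and the ETS factor ETV4 (-2.39) fell too. SPRY2, a close relative of SPRY1, went the other way, with 16.6 and 38 CPM in DMSO, 71.8 and 82.2 CPM in IR and 87.1 and 89 CPM in CR cells (1.67, adjusted p = 0.00016). SPRED1 (1.30), MYC (0.92) and the AP-1 factor FOSL1 (2.32) also rose.

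The study asked about HIF1α, the oxygen-regulated factor that is degraded through VHL, and about its target genes. It reported more HIF1α and USP29 protein in resistant than in parental cells, with their mRNA unchanged. The RNA levels given here do not measure protein. HIF1A had 778 and 579.5 CPM in DMSO, 437 and 566 CPM in IR and 588 and 791 CPM in CR cells, which overlapped. Its log2 fold change was -0.21 (SE 0.19, adjusted p = 0.39), which gives a range of -0.59 to 0.17 at 2 SE. HIF1A was thus not called against DMSO. Against parental cells, which held 814 and 1138 CPM, HIF1A was called lower, at -0.72. EPAS1, which codes for HIF2α (-0.20), the partner ARNT (-0.40) and VHL (0.044) were not called against DMSO either. USP29, a deubiquitinating enzyme, was between 0 and 0.0287 CPM in the 8 Huh7 libraries, which is at most 2 reads in any of them, so that no difference could be seen at this depth. SLC2A1, the glucose transporter GLUT1, had 23.8 and 33.3 CPM in DMSO, 55.4 and 60.3 CPM in IR and 96.4 and 78.8 CPM in CR cells. It was higher in each resistant library, at 1.31 (SE 0.27, adjusted p = 0.0014), and at 2.00 against parental cells (21.4 and 13.4 CPM).

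**Figure D2:**
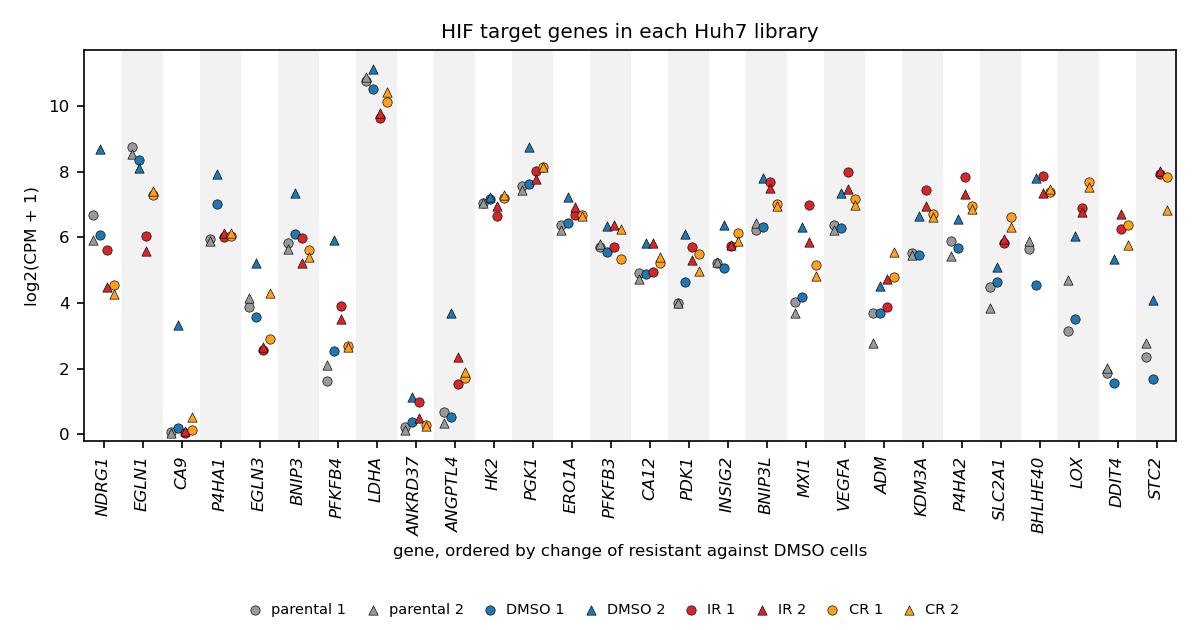
Level of the 28 HIF target genes as log2(CPM + 1), with circles for replicate 1 and triangles for replicate 2 of each Huh7 group. DMSO replicate 2 (upward blue triangle) lies above DMSO replicate 1 for 27 genes and is the highest of the 8 libraries for 15, and the resistant libraries often lie between both DMSO libraries.

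The HIF target genes as a list gave no single direction against DMSO. Of 28 tested, 6 were called higher and 6 lower, 5 of each without overlap, with a median of -0.01, where 23.6% and 17.6% of all tested genes were called. STC2, a secreted glycoprotein, had 2.23 and 16.1 CPM in DMSO, 244 and 261 CPM in IR and 228 and 114 CPM in CR cells. It was far higher in each resistant library, at 4.77 (SE 0.48, adjusted p = 6.2e-06, and 3.56 without DMSO replicate 1). LOX, which crosslinks collagen, had 10.4 and 64.2 CPM in DMSO, 116 and 107 CPM in IR and 203 and 183 CPM in CR cells. Its rise of 2.44 log2 units was 1.18 and not called without DMSO replicate 1. DDIT4, an inhibitor of mTORC1, had 1.93 and 39.5 CPM in DMSO, 75.6 and 103 CPM in IR and 81.7 and 53.1 CPM in CR cells, at 2.83 and 0.93 without DMSO replicate 1. The collagen hydroxylase subunit P4HA2 rose (1.12), and the histone demethylase KDM3A was called higher (0.87) with overlap, and was 0.28 and not called without DMSO replicate 1.

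Among the lower ones, EGLN1, the oxygen sensor that marks HIF1α for VHL, had 322 and 273 CPM in DMSO, 64.3 and 47.2 CPM in IR and 156 and 171 CPM in CR cells. It fell in each resistant library, IR more than CR, at -1.63 (SE 0.15, adjusted p = 2.8e-06), and at -2.06 against parental cells. NDRG1, a well-known hypoxia-induced gene, had 66.3 and 415 CPM in DMSO, 47.5 and 21.5 CPM in IR and 22.2 and 18.4 CPM in CR cells. Its log2 fold change of -2.66 was -1.35 and not called without DMSO replicate 2, -1.56 and not called against parental cells, and -3.97 without DMSO replicate 1. P4HA1 was called lower at -1.39 against DMSO and was at 0.17 and not called against parental cells. BNIP3 (-1.16) was not called without DMSO replicate 2 (-0.54) or against parental cells (-0.18).

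DMSO replicate 2 set these genes apart from DMSO replicate 1. It was at least 1 log2 unit higher for 17 of the 28 genes, while DMSO replicate 1 was higher by that much for 0. BHLHE40, a transcription factor induced by hypoxia, had 22.4 and 221 CPM in the DMSO libraries, 235 and 161 CPM in IR, 164 and 175 CPM in CR and 48.9 and 57.7 CPM in parental cells. It was not called (1.34), and its value was 2.96 against DMSO replicate 1 alone and -0.28 against DMSO replicate 2 alone. CA9, a carbonic anhydrase at the cell surface, had 0.152 and 9.15 CPM in DMSO and 0.0332 to 0.458 CPM in the resistant libraries. Without DMSO replicate 2, 12 of the genes were called higher and 2 lower, without DMSO replicate 1, 4 and 10, and with the parental libraries as reference, 12 and 2, where 26.9% and 16.1% of all genes were called.

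Of 24 tested genes of glycolysis, 5 were called higher and 7 lower without overlap (median -0.19), where 21.5% and 15.9% of all tested genes were. Of the hexokinases, which trap glucose in the cell, HK1 and HKDC1 rose and HK2 was not called. HK1 had 0.896 and 1.72 CPM in DMSO, 128 and 120.4 CPM in IR and 76.1 and 78.5 CPM in CR cells, at 5.45 (SE 0.21, adjusted p = 2.2e-09). HKDC1, a further member of the family, had 1.3 and 4.28 CPM in DMSO, 111 and 122 CPM in IR and 95.3 and 96.2 CPM in CR cells, at 4.94 (4.34 without DMSO replicate 1). HK2, the isoform typical of tumors, had 144 and 148 CPM in DMSO, 99.2 and 123 CPM in IR and 147 and 154 CPM in CR cells (-0.18, SE 0.19). The phosphofructokinase PFKP rose (1.93). Further down the pathway, TPI1 (-1.02), lactate dehydrogenase LDHA (-0.83, -0.52 and not called without DMSO replicate 2), the liver form of pyruvate kinase PKLR (-1.28, -0.49 and not called without DMSO replicate 2) and ALDOC (-2.28, -0.97 without DMSO replicate 2) were called lower. Against parental cells PKLR (-0.12) and ALDOC (-0.42) were not called. Without DMSO replicate 2 the counts were 8 higher and 2 lower, without DMSO replicate 1 they were 5 and 11, and against parental cells 9 and 3.

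Genes of DNA replication and mitosis were lower. Of 28 tested, 24 were called lower and 0 higher, 21 without overlap, at a median of -1.14, where 17.6% of all tested genes were called lower and 15.9% without overlap. The lowest of the 6 libraries was an IR library for all 28, a position that was not counted over all tested genes. MCM3, a subunit of the replicative helicase, had 494 and 404 CPM in DMSO, 81.2 and 165 CPM in IR and 221 and 263 CPM in CR cells (-1.41). CCNB1, the cyclin of mitosis, had 356 and 242 CPM in DMSO, 44.4 and 53.9 CPM in IR and 129 and 129.8 CPM in CR cells. Both were lower in each resistant library, at -1.87 for CCNB1 (SE 0.18, adjusted p = 4.1e-06). AURKB (-1.92), CCNA2 (-1.83), the proliferation marker MKI67 (-1.45, -1.21 and not called without DMSO replicate 1) and RRM2, a subunit of ribonucleotide reductase (-2.17, -1.73 and not called without DMSO replicate 1, -1.43 without IR replicate 1), fell too. IR cells were called lower than CR cells for 14 of the 28 genes and higher for 0, where CR was higher for 5.43% of all tested genes, in a comparison whose calls fell from 2051 to 194 or 10 genes in fits of fewer libraries.

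Targets of p53 were called higher for 6 of 15 and lower for 2, but 3 of these 8 calls were free of overlap (median 0.44), and edgeR called 3 higher and 4 lower. Of all tested genes, 23.6% were called higher and 17.6% lower. The 3 p53 targets without overlap were higher, a share close to the 21.5% of all tested genes. The cell cycle inhibitor CDKN1A had 2.63 and 27.1 CPM in DMSO, 45.7 and 43.6 CPM in IR, 40.4 and 54.9 CPM in CR and 2.44 and 1.03 CPM in parental cells. Its value of 2.21 was 0.74 and not called without DMSO replicate 1, and it was 4.15 against parental cells. The death receptor FAS had 0 reads in both DMSO libraries and 2.04 and 0.708 CPM in IR and 2.4 and 2.71 CPM in CR cells, at least 46.5-fold higher with 3 reads per DMSO library as the floor. PHLDA3, an inhibitor of AKT, rose by 1.45. Of 14 genes of the BCL2 family, 6 were called higher and 1 lower (4 and 1 without overlap, median 0.55), where 23.6% and 17.6% of all tested genes were. PMAIP1 (NOXA), which promotes cell death, had 7.31 and 10.5 CPM in DMSO, 103 and 51.9 CPM in IR and 62.1 and 40.9 CPM in CR cells, at 2.66 (SE 0.26, adjusted p = 4e-06). BCL2L1, which codes for the survival protein BCL-XL, had 443 and 445 CPM in DMSO, 241 and 272 CPM in IR and 260.1 and 253 CPM in CR cells. It was lower in each resistant library, at -0.79 (SE 0.11, adjusted p = 5.8e-05). BCL2L2 (0.71, 0.57 without DMSO replicate 1) and BCL2 (0.85, 0.83 without DMSO replicate 1 and 0.55 without IR replicate 1) were called higher and were not called in those settings. Without DMSO replicate 1, 1 gene of the family was called higher.

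Targets of NRF2, the factor of the oxidative stress response, were called lower for 5 of 19 and higher for 1 (median -0.01), where 17.6% and 23.6% of all tested genes were. The quinone reductase NQO1 had 674 and 775 CPM in DMSO, 40.2 and 25.9 CPM in IR and 48.9 and 58.9 CPM in CR cells, and fell by 4.09 log2 units (SE 0.31, adjusted p = 5.6e-07). GCLM, a subunit of the enzyme that limits glutathione synthesis (-1.83), ME1 (-1.77) and HMOX1 (-0.91) fell as well. SLC7A11, the cystine importer, went up from 87.3 and 67.6 CPM in DMSO to 302 and 248 CPM in IR and 263 and 144 CPM in CR cells (1.57, adjusted p = 0.00018). SLC7A11 is also a target of ATF4, the factor of the integrated stress response.

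Of 20 genes of the integrated stress and unfolded protein responses, 7 were called higher and 4 lower (5 and 4 without overlap, median 0.11), where 23.6% and 17.6% of all tested genes were, so that the lower share was close to that of all genes. Without DMSO replicate 1 the higher count was 4. Among the genes of amino acid supply that ATF4 drives, asparagine synthetase (ASNS) had 99.8 and 131 CPM in DMSO, 699 and 470.4 CPM in IR and 703 and 362 CPM in CR cells. It was higher in each resistant library, at 2.22 (SE 0.23, adjusted p = 7.6e-06). The serine synthesis genes PSAT1 (2.01) and PHGDH (1.54) and the glutathione-degrading enzyme CHAC1 (3.03, 2.44 or 3.62 with 1 DMSO library left out) rose too. ATF3 (1.58), DDIT3 (1.31) and TRIB3 (1.02) were called higher, but were 0.97, 0.65 and 0.27 and not called without DMSO replicate 1. TRIB3 was not called either without IR replicate 1 (0.84) or CR replicate 1 (0.86). The lower genes of the list included PDIA4, a disulfide isomerase of the endoplasmic reticulum, which had 448 and 398 CPM in DMSO, 154 and 186 CPM in IR and 164 and 197 CPM in CR cells (-1.27, adjusted p = 5.8e-06), and also CRELD2 (-1.14) and SDF2L1 (-1.09).

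Interferon-stimulated genes, the antiviral program that the factor complex ISGF3 switches on through the interferon-stimulated response element (ISRE), rose in part. Of 18 tested, 12 were called higher and 1 lower (10 and 1 without overlap, median 1.04), where 23.6% and 17.6% of all tested genes were (21.5% and 15.9% without overlap). The ISRE letters GAAA, a gap of 2 bases and GAAA again, searched on both strands from 250 bases before to 50 bases after the start of each gene in RefSeq (GRCh38.p14), were found in 11 of the 16 list genes with a promoter in that table, and in 327 of 11742 promoters of tested genes (2.78%). Shown is 1 match each of IFIT3, IFIH1, IFI6 and OAS3, which rose, and of ISG15, which was not called, so that the same letters stood before genes of both kinds. Each line gives 40 bases of the strand of the gene with the match in capitals, which reads as TTTC, 2 bases and TTTC where it lies on the opposite strand:
IFIT3 (chr10:89327860-89327899, + strand): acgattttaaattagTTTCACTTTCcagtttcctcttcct
IFIH1 (chr2:162318813-162318852, - strand): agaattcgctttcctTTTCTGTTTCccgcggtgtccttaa
IFI6 (chr1:27672283-27672322, - strand): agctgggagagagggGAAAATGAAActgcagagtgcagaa
OAS3 (chr12:112938316-112938355, + strand): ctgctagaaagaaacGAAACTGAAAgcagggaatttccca
ISG15 (chr1:1013375-1013414, + strand): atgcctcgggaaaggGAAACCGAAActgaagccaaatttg

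IFIT3, one of the RNA-binding IFIT proteins, had 1.37 and 1.62 CPM in DMSO, 34 and 11.2 CPM in IR and 6.45 and 6.3 CPM in CR cells (2.31, adjusted p = 5.3e-05). IFIH1 (MDA5), a sensor of double-stranded RNA, had 2.8 and 2.43 CPM in DMSO, 40.9 and 17.6 CPM in IR and 13.4 and 12.4 CPM in CR cells (2.45, adjusted p = 9e-06). OAS3, which senses double-stranded RNA and activates RNase L, had 0.262 and 0.359 CPM in DMSO, 11.8 and 3.11 CPM in IR and 2.29 and 2.28 CPM in CR cells (1.90). All 4 resistant libraries were higher than both DMSO libraries for each of them, and IR replicate 1 was the highest. IFI6 had 0.717 and 1.51 CPM in DMSO, 13.2 and 2.36 CPM in IR and 3.21 and 3.34 CPM in CR cells, and its value of 1.39 was 1.12 and not called without DMSO replicate 1, and 0.59 and not called against parental cells. ISG15, a ubiquitin-like modifier, had 4.7 and 15.5 CPM in DMSO, 6.58 and 15.6 CPM in IR and 5.21 and 7.12 CPM in CR cells, which overlapped (-0.12).

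OAS2, a relative of OAS3, showed the largest rise of the list, with 0.0138 and 0 CPM in DMSO, 11.4 and 15.5 CPM in IR and 10.9 and 11.2 CPM in CR cells (3.71, SE 0.13, adjusted p = 1e-09). IFIT2 rose by 3.03, and the ISGF3 subunits IRF9 (1.61) and STAT2 (0.93) rose, while MX2 was called lower (-0.83), but not against parental cells (-0.30). IFIT1 was called higher (1.19) with overlap, and was not called without DMSO replicate 1 (0.61), IR replicate 1 (0.76) or CR replicate 2 (1.10). Between the resistant lines, 5 of the 18 genes were called higher in IR and 0 in CR, where 8.23% and 5.43% of all tested genes were, and these calls too depended on the fit. A search for the sterol element TCACNCCAC in 17 cholesterol gene promoters found 1 match (SREBF2, against 1.09% of all promoters), and for the HNF4 letters CAAAGTCCA in 20 plasma protein promoters 1 match (AHSG, against 0.349%). These searches describe letters only, and a missing match says nothing of the factors.

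Chemokines and targets of NF-κB were called higher for 7 of 17 and lower for 2 (6 and 2 without overlap, median 0.44), with 5 lower against parental cells. Against DMSO, 23.6% of all tested genes were called higher and 17.6% lower. LIF, a cytokine of the IL-6 family, had 1.77 and 2.63 CPM in DMSO, 39 and 52.9 CPM in IR and 53.1 and 48.2 CPM in CR cells, at 3.95 (SE 0.24, adjusted p = 8.1e-08). BIRC3, an inhibitor of apoptosis, rose by 3.38 (2.55 without DMSO replicate 2), and CCL2, which attracts monocytes, from 0.0138 and 0 CPM in DMSO to 1.89 and 7.72 CPM in IR and 1.17 and 1.18 CPM in CR cells. CCL20, a chemokine of the CCR6 receptor, had 134 and 287 CPM in DMSO, 2.3 and 3.75 CPM in IR and 8.83 and 13.1 CPM in CR cells, and fell by 4.85 log2 units (adjusted p = 4.2e-06), as did CXCL1 (-2.57).

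Of 13 tested genes of Wnt and β-catenin signaling with the HCC antigen glypican-3 (GPC3), 5 were called lower and 2 higher (4 and 2 without overlap, median -0.12), where 17.6% and 23.6% of all tested genes were. GPC3 had 579 and 777 CPM in DMSO, 3.73 and 3.05 CPM in IR and 39.2 and 48.4 CPM in CR cells. It fell by 5.59 log2 units (SE 0.42, adjusted p = 5.5e-07), and CR cells kept more of it than IR cells. DKK1, a secreted inhibitor of Wnt (-3.45), and glutamine synthetase (GLUL, -1.28) fell. AXIN2, a direct target of β-catenin, had 2.44 and 1.81 CPM in DMSO, 28.7 and 18 CPM in IR and 15.1 and 17.7 CPM in CR cells, and rose by 2.71 (adjusted p = 2.7e-07), and RNF43 was called higher at 1.02, but was 0.58 and not called against parental cells.

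IR and CR cells, which the comparison takes together, differed from each other for 2051 genes (13.7%), of which 1236 were higher in IR (8.23%) and 815 in CR cells (5.43%). Among the called genes without overlap, 575 of the higher ones (17.8%) and 378 of the lower ones (15.9%) differed between the resistant lines. This count depended on the fit, with 194 genes in a fit of the 8 Huh7 libraries alone, 10 in a fit of the 6 compared libraries alone, and 479 without CR replicate 2 or 879 without CR replicate 1. CRYAB, a small heat shock protein, had 0.91 and 1.49 CPM in DMSO, 136 and 13.9 CPM in IR and 1.72 and 3.09 CPM in CR cells, so that IR was higher than CR by 3.76 log2 units (SE 0.70, adjusted p = 0.0056) while both IR libraries were far apart. Without IR replicate 1 its change against DMSO was 1.69 in place of 2.49. The formin FHOD3 had 83.2 and 25.1 CPM in IR and 3.11 and 2.45 CPM in CR cells, and UBE2QL1 had 20.7 and 6.41 and 0.108 and 0.0524 CPM, with IR minus CR differences of 3.64 and 3.55. DUOX2, which makes hydrogen peroxide, had 0.0276 and 0.819 CPM in DMSO, 2.2 and 7.62 CPM in IR and 51.5 and 149 CPM in CR cells, an IR minus CR difference of -4.08 (adjusted p = 0.00038). ALB (-3.68) and APOB (-4.12) were likewise lower in IR than in CR cells. Of the plasma protein genes, 6 were called lower in IR than in CR cells and 1 higher.

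Hep3B, a further HCC line with its own DMSO, IR and CR libraries, served to see which Huh7 changes were shared. Of the 3232 higher genes of Huh7, 1337 were called higher in resistant Hep3B cells, 41.4% of the Huh7 genes and 47.8% of the Hep3B genes, where 18.6% of all tested genes were called higher. Of the 2382 lower genes, 928 were called lower in Hep3B (39% and 44.4%, against 13.9% of all). A change in the opposite direction was called for 99 and 149 genes. The change itself differed between the lines for 4781 genes (31.8%), among them 1528 of the higher genes (47.3%) and 1332 of the lower ones (55.9%). AXL rose in Hep3B by 6.15 and ITGA3 by 6.39, and their changes did not pass the test of a difference between lines (1.02 with SE 0.45, and 0.10 with SE 0.40). The changes in CDC42EP3 (0.57 in Hep3B), TNC (-0.00087) and CD44 (0.50) were larger in Huh7, by 6.51, 6.85 and 6.05 log2 units (adjusted p = 1.7e-08, 0.00014 and 0.00017). HK1 rose in Huh7 and was 0.24 in Hep3B (difference 5.21, adjusted p = 2.4e-07), while HKDC1 rose in both lines (4.75 in Hep3B). The cholesterol list fell in Hep3B as well, with 22 of 23 genes called lower, a median of -1.60, and 0 genes for which the lines differed.

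Some genes moved in opposite directions in both lines. COL14A1, a collagen of fibril surfaces, had 1582 and 1430 CPM in DMSO, 45.3 and 23.3 CPM in IR and 17.6 and 43.6 CPM in CR cells of Huh7, a log2 fold change of -5.60, and rose by 3.45 in Hep3B (difference -9.05, adjusted p = 1e-07). SCIN, which severs actin filaments, fell by 5.76 in Huh7 and rose by 0.87 in Hep3B, and CYP2B6 fell by 3.27 in Huh7 and rose by 3.93 in Hep3B. In Hep3B, CYP2B6 had 0.742 and 1.96 CPM in DMSO, 271 and 407 CPM in IR and 3.56 and 1.83 CPM in CR cells. Its rise there thus came from IR cells, and the CR libraries overlapped with DMSO. EVA1A, a gene linked to autophagy, rose by 4.56 in Huh7, from 0.869 and 1.65 CPM in DMSO to 76.9 and 52.9 CPM in IR and 39.2 and 43.5 CPM in CR cells, and fell by 2.85 in Hep3B. CD47 (4.19 and -1.29), a surface signal that macrophages read as self, showed the same opposition. The protease ADAM19 (4.54 and -1.45) showed it in Hep3B IR cells only. Hep3B held 13.3 and 13.3 CPM of ADAM19 in DMSO, 1.18 and 0.355 CPM in IR and 18.5 and 12.1 CPM in CR cells.

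The 8 genes that set the DMSO libraries farthest apart show how far single values can rest on 1 of them. LGALS14 had 2.29 and 134 CPM in the DMSO libraries, and the long noncoding RNA UCA1 4.7 and 188 CPM, while the resistant libraries held at most 0.0309 CPM of either. Both were called lower (-4.39 and -5.03), but the size rested on DMSO replicate 2, with -1.71 and -2.50 without it. Against parental cells LGALS14 was -0.60 and not called. ENO2, an enolase that hypoxia induces, had 1.61 and 70.5 CPM in DMSO, 67.9 and 22.1 CPM in IR and 18.3 and 10.2 CPM in CR cells, so that the resistant libraries lay between both DMSO libraries. It was not called (0.82), and was 3.21 against DMSO replicate 1 alone and -1.56 against DMSO replicate 2 alone. CCDC183 (4 and 102 CPM in DMSO) was not called. In the other direction, FAM111B, a protease gene of S phase, had 55.3 and 12.3 CPM in DMSO and was not called, and neither were CCDC198 and LRRN3. NRP2, a co-receptor of semaphorins and VEGF, had 51.9 and 15.1 CPM in DMSO, 71.6 and 99.2 CPM in IR and 139 and 140.2 CPM in CR cells, and was called higher (1.91, 1.05 without DMSO replicate 2). Against parental cells, with 75.2 and 57.8 CPM, it was 0.71 and not called.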

How the data were processed

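RNA was sequenced from 16 libraries of Huh7 and Hep3B cells in 8 groups of 2, of which the 6 Huh7 libraries labeled DMSO, IR and CR enter the comparison and the 2 parental Huh7 and the Hep3B libraries serve beside it. Per the labels and the study's methods, the authors enriched poly(A) RNA with a stranded kit, aligned the reads to hg19 with STAR, counted uniquely aligned reads over RefSeq exons with QuasR, and deposited CPM (read counts scaled to the same total) for each gene and library. The study's methods name biological triplicates for RNA extraction, of which 2 libraries per group were analysed here. The kit and sequencer differ between the labels and the methods. CPM carry no correction for the length of a gene, so that levels are not compared between genes, and a few very abundant genes can shift the CPM of all others.

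The steps of CPM gave back whole reads for 100% of the values within a tolerance of 0.05 reads, and thus the depth of each library. On these reads edgeR called 3165 genes higher and 3379 lower. Genes at 1 CPM or more in at least 2 of 16 libraries were tested with limma 3.58.1 in R 4.3.3 on log2(CPM + 1), in a single fit of the 8 groups with an intensity trend. Fold changes are on this scale, which understates the change of low genes. The contrast was the mean of IR and CR minus DMSO, with further contrasts for IR minus CR, for Hep3B and for the difference of the change between lines. Calls needed 0.58 log2 units and a BH adjusted p of 0.05 over all 15019 genes. The same steps were tested on simulated data. A floor of 3 reads bounds a fold against a group at 0, and bounds cover counting error only.

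The members and lists were chosen with earlier results of these data known, and the lists were written by hand from general knowledge. Genes were named by rule: the 12 largest changes in each direction among called genes without overlap with a mean of at least 5 CPM in the higher group, up to 3 per list and direction, the genes of the study question, the 4 per direction that set the DMSO libraries farthest apart, and the 3 per direction that differed most between IR and CR or moved oppositely in Hep3B. Another 53 list members with values, and the marker genes, were chosen after their values were seen. Alternatives were edgeR 4.0.16 and DESeq2 1.42.0 on recovered reads, TMM factors, quantile normalization, other pseudocounts, no filter, fewer libraries in the fit, a replicate block, the parental reference, a GC correction, robust moderation, unadjusted p, and leaving out each library. Some genes of the lists are counted but not reported here by name. Gene positions are from GENCODE on GRCh37, and promoters are from RefSeq on GRCh38.p14.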

Additional observations from a re-analysis of the deposited data

Results flagged for a closer look

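These results were marked because the change differed between the cell lines, or between both resistant Huh7 lines, by a limma test of the difference itself (values are log2 differences). The change in Huh7 exceeded that in Hep3B by 6.85 for TNC, 6.51 for CDC42EP3, 6.24 for COL4A2, 6.05 for CD44, 5.26 for GPX8, 4.63 for SVIL, 2.84 for AHNAK2, 2.83 for PLCXD3 and 2.59 for KRT80. Among genes that fell in Huh7, the change in Huh7 minus that in Hep3B was -5.66 for APOC4-APOC2, -5.65 for APOC2, -5.36 for APOA2, -5.11 for AMBP, -4.86 for MTTP, -3.97 for AFP, -3.42 for A2M, -3.20 for NTS and -3.01 for APOB.

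For HIF1A, which was not called in Huh7 against DMSO and was called higher in Hep3B (0.92), the same difference was -1.13. Genes with opposite changes gave 7.41 for EVA1A, 5.99 for ADAM19, 5.48 for CD47, -6.63 for SCIN, -7.20 for CYP2B6 and -9.05 for COL14A1. The Hep3B changes of ADAM19 and CYP2B6 were in IR cells, and the CR libraries overlapped with DMSO. For genes that differed between the resistant Huh7 lines, the line difference was 4.25 for FHOD3, 3.88 for DUOX2, 2.98 for CRYAB and 1.72 for UBE2QL1.

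Huh7-IR exceeded Huh7-CR by 3.76 for CRYAB, 3.64 for FHOD3, 3.55 for UBE2QL1, 2.83 for ITGA3, 1.88 for NIBAN1 and 1.58 for AHNAK2. The IR minus CR difference was -4.12 for APOB, -4.08 for DUOX2, -3.68 for ALB, -2.26 for AMBP, -2.03 for AFP and -1.76 for ADAM19. Each line was raised once, so that these differences hold for these lines, and their cause was not tested.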

How the results depend on the processing

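The counts of genes called in resistant against DMSO cells stayed within 1.5 times of the reported ones under all 21 alternatives, at 2804 to 4034 higher and 2034 to 3396 lower genes, as did the line difference under 19 (3994 to 5528 genes). With the replicate number as a block, 3540 genes were higher and 2651 lower, and no named gene lost its call. The numbers were not taken to pair the samples, since deviations of same-numbered libraries correlated at -0.0102 for DMSO and IR, 0.155 for DMSO and CR and 0.439 for IR and CR, so that IR and CR libraries deviated together by number and DMSO and IR libraries did not. The block gave 2076 genes for IR against CR. IR against CR gave 194 genes with the Huh7 libraries alone, 10 with the 6 libraries alone, 3148 at unadjusted p, and 479 to 2878 when single libraries were left out. Of 3920 values of 196 named genes, 88 lost their call, 32 gained one and 34 changed sign, and 145 genes kept direction and call throughout. A fit of the 6 libraries alone (2804 higher and 2034 lower) lost the calls of COL5A2, FGFR1, DDIT4, PKLR, RRM2, CDKN1A, BCL2, RNF43, CRYAB, ATF3, BNIP3, CDH1, DDIT3, HMOX1, IFI6, IFIT1, KDM3A, MKI67 and TRIB3. Of 920 list counts, 866 stayed within 1.5 times. Leaving out 1 library moved 46 named genes over 1.5-fold, 43 of them most without a DMSO library.

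Changes of sign were as follows, and their cause was not tested. With the parental libraries as reference, values were 0.19 for TJP3, 0.17 for P4HA1, 0.30 for EPAS1, 1.69 for CCDC183, -0.65 for CCDC198, 0.14 for CA9, 0.59 for CDH1, 0.58 for ISG15, 0.61 for LSS and -0.16 for THBS1, and with DMSO and parental libraries together 0.047 for EPAS1, 0.23 for ISG15 and 0.046 for LSS. VHL had -0.054 in edgeR, -0.046 in DESeq2, -0.053 under TMM factors, -0.014 under quantile normalization and -0.10 under the GC correction. ENO2 was -0.60 with edgeR and -0.58 with DESeq2. When single libraries were left out, values ranged from -0.43 to 0.029 for EPAS1, -0.42 to 0.0063 for HIF1A, -1.56 to 3.21 for ENO2, -4.07 to 0.29 for CCDC183, -0.092 to 1.59 for CCDC198, -0.86 to 0.82 for LRRN3, -0.28 to 2.96 for BHLHE40, -3.13 to 0.0057 for CA9, -0.60 to 0.041 for HP, -0.88 to 0.65 for ISG15 and -1.14 to 0.098 for LSS, mostly without a DMSO library.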
